A study of Arabidopsis thaliana with 2 samples.

Results

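The 10 ARGONAUTE (AGO) genes of Arabidopsis thaliana were described by clade, with AGO1, AGO5 and AGO10 in the first, AGO2, AGO3 and AGO7 in the second, and AGO4, AGO6, AGO8 and AGO9 in the third. They were found by gene code and are 10 of the 33575 annotated genes in a merged set of transcript models. They hold 22 of its 52608 transcripts, of which 14 are annotated and 8 are new isoforms, that is, assembled transcripts that share at least 1 splice junction with an annotated one but differ elsewhere. The 2 labelled libraries were made from siliques (seed pods) of soil-grown ago3-3 mutants in the Col-0 background, collected 1 to 5 days after pollination under long days. What the ago3-3 allele changes in the gene is not stated in the labels. Wild-type Col-0 siliques are named in the design and were not analysed separately here. Total RNA was depleted of ribosomal RNA and sequenced with strand kept.

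AGO1 (AT1G48410), AGO2 (AT1G31280), AGO3 (AT1G31290) and AGO7 (AT1G69440) lie on chromosome 1, at chr1:17885633-17892596 (minus strand), chr1:11181711-11185344 (plus), chr1:11188293-11192317 (plus) and chr1:26101527-26105166 (minus) of TAIR10. AGO4 (AT2G27040, chr2:11536534-11542357, minus), AGO5 (AT2G27880, chr2:11871488-11876894, plus) and AGO6 (AT2G32940, chr2:13971997-13977476, minus) lie on chromosome 2. AGO8 (AT5G21030, chr5:7139892-7144272, minus), AGO9 (AT5G21150, chr5:7192239-7198324, plus) and AGO10 (AT5G43810, chr5:17610972-17616797, plus) lie on chromosome 5.

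The table gives exon positions and 0 columns with a value per library. No genotype comparison, replicate spread, read depth or expression level could therefore be given, and the silique label could not be checked against marker genes. Annotated transcripts stand in the table with or without reads, so only the new isoforms were read as assembled from RNA. The labels do not state which libraries entered the merge.

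ARGONAUTE proteins bind small RNAs and use them as guides to matching RNA. AGO1 is the main carrier of plant microRNAs, AGO10 holds microRNAs of the miR165/166 family in shoot meristems, and AGO5 is known from reproductive tissue. AGO2 acts in antiviral defence, AGO3 is its closest relative, and AGO7 binds miR390 to start the making of trans-acting small RNAs. AGO4, AGO6 and AGO9 take part in RNA-directed DNA methylation, with AGO9 known from ovules, while AGO8 is often regarded as a pseudogene.

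The 5 new coding splice sites were shifts of annotated ones by 3 to 105 nt, and each is shown beside the site it replaced because the results turn on these pairs. Each line gives 30 bases of the sense strand, 5′ to 3′, from the TAIR10.1 reference, and capitals mark the first or last pair of intron bases at that site.
AGO5 new acceptor, chr2:11875387-11875416, plus strand: gtgactcacccacAGcctggagaggactca
AGO5 annotated acceptor, chr2:11875282-11875311, plus strand: gtatttgtattacAGactgggggaaggaac
AGO2 new donor, chr1:11182180-11182209, plus strand: tttctgaacccgttcGTggtatatatgctc
AGO2 annotated donor, chr1:11182183-11182212, plus strand: ctgaacccgttcgtgGTatatatgctcaat
AGO2 new acceptor, chr1:11182392-11182421, plus strand: gaaatgtgacagtAGctgaagttatgaatc
AGO2 annotated acceptor, chr1:11182389-11182418, plus strand: tttgaaatgtgacAGtagctgaagttatga
AGO6 new acceptor, chr2:13974779-13974808, minus strand: tactgctatgacaAGgacccatttttggct
AGO6 annotated acceptor, chr2:13974806-13974835, minus strand: tgactagaattgtAGgcaatgcatacctac
AGO9 new acceptor, chr5:7194781-7194810, plus strand: cgacgtgtcctcaAGaatctgagagttcaa
AGO9 annotated acceptor, chr5:7194763-7194792, plus strand: attttatctcatcAGgctcgacgtgtcctc

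The clades differed in exon number with no overlap between AGO2/3/7 and the other clades. AGO1 had 22 exons in its longest annotated transcript, AGO5 had 20 and AGO10 had 21, which gives a median of 21 for the clade. AGO2, AGO3 and AGO7 had 3 each. AGO4, AGO6 and AGO9 had 23 each and AGO8 had 21, with a clade median of 23. The 7 genes with many exons thus lie at the upper end of the genome, where the median of 33297 nuclear genes was 3 exons and 1.84% had 20 or more. Relative to coding length, those 7 genes carried 6.07 to 7.96 coding introns per kb of coding sequence, against 0.558 to 0.673 in AGO2, AGO3 and AGO7.

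**Figure D1:**
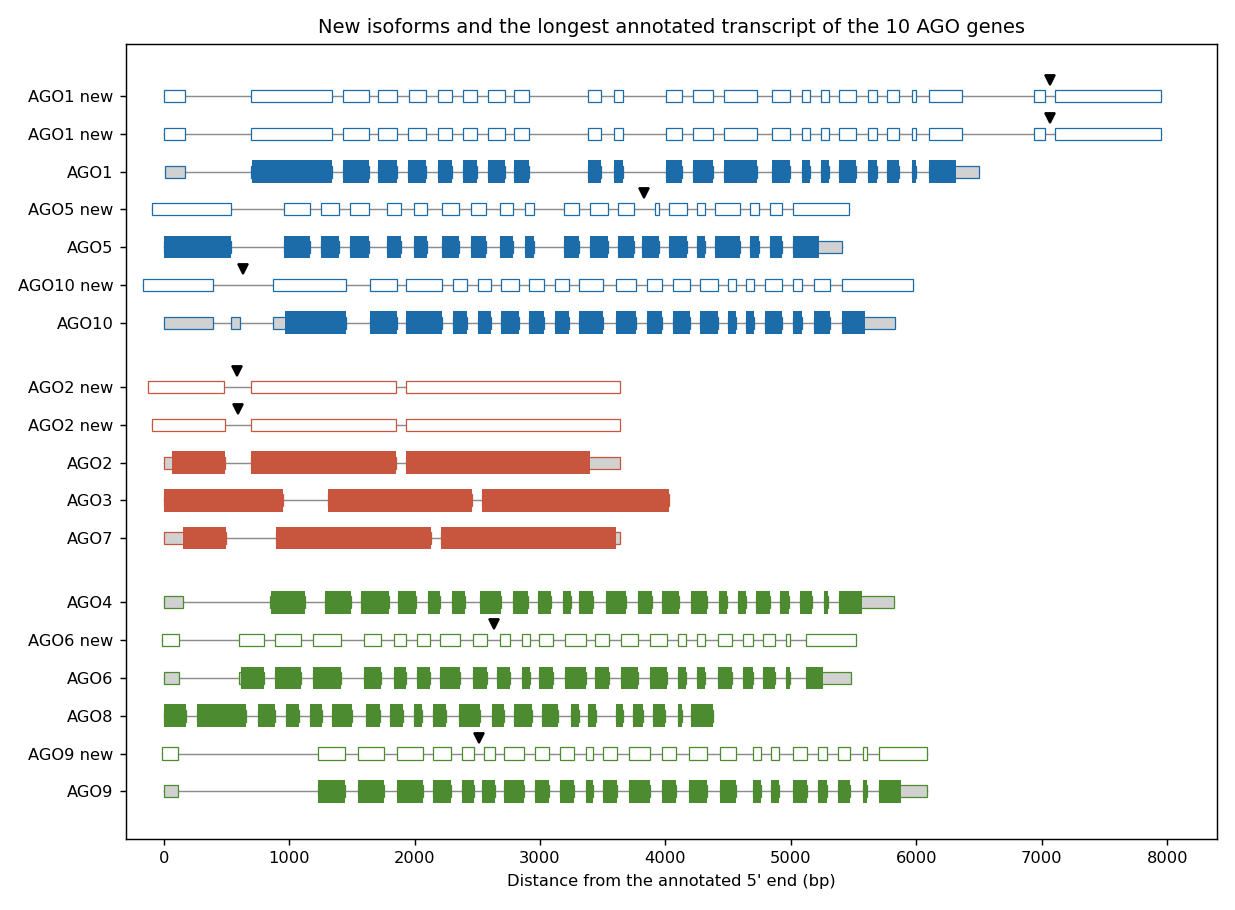
Exon models of the 10 AGO genes, drawn 5′ to 3′ against the distance in bp from the annotated 5′ end, with blue for AGO1/5/10, red for AGO2/3/7 and green for AGO4/6/8/9. White boxes are exons of new isoforms and stand above the longest annotated transcript, tall filled boxes are coding sequence, grey boxes are untranslated exons, and triangles mark introns absent from the gene's annotation. The 3 red genes consist of 3 exons each, the other 7 of 20 to 23.

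AGO2, AGO3 and AGO7 were also the shortest genes. They spanned 3634, 4025 and 3640 bp, against 6964 bp in AGO1, 5407 bp in AGO5 and 5826 bp in AGO10, and 5824, 5480, 4381 and 6086 bp in AGO4, AGO6, AGO8 and AGO9. Their spliced transcripts were not shorter. AGO3 had 3585 nt, AGO2 3343 nt and AGO7 3161 nt, within the range of 2553 nt in AGO8 to 3763 nt in AGO10. The AGO3 and AGO8 models hold 0 nt of noncoding exon, so their lengths and spans leave out the UTRs. In the other members noncoding exon sequence ran from 182 nt in AGO5 to 796 nt in AGO10. The difference in span lay in the introns, which made up 8.01% of AGO2, 10.9% of AGO3 and 13.2% of AGO7. In the intron-rich clades this share ran from 35.4% in AGO10 to 50.4% in AGO9. Coding sequence that is spread over 19 to 22 coding exons elsewhere sat in 3 long ones here, the longest being exon 3, with 1700 nt in AGO2, 1486 nt in AGO3 and 1431 nt in AGO7.

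Introns of the intron-rich clades were short. The 63 different annotated introns of AGO1/5/10 had a median of 89 nt and a range of 63 to 839 nt. The 87 of AGO4/6/8/9 had a median of 90 nt and a range of 65 to 1117 nt. The 6 introns of AGO2/3/7 had a median of 145.5 nt and ran from 79 to 397 nt, while the median over 127854 annotated nuclear introns was 100 nt. In the longest transcripts, 50 of 60 introns of AGO1/5/10 (83.3%) and 77 of 86 of AGO4/6/8/9 (89.5%) were under 120 nt, against 62.6% genome-wide. In AGO2/3/7 it was 3 of 6.

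In the longest annotated transcripts, the first intron was the longest in 8 of the 10 genes, the exceptions being AGO8 and AGO10. For AGO10 this depended on the transcript. Its other annotated transcript has a first intron of 839 nt, the longest of the gene. Over 17632 genes with 3 or more exons the first intron was the longest in 42.0%. In AGO9 it measured 1117 nt, in AGO4 701 nt, in AGO1 527 nt, in AGO6 481 nt and in AGO5 418 nt. In AGO7 it measured 397 nt, in AGO3 361 nt and in AGO2 206 nt. The first intron of AGO8 had 89 nt, and its longest had 153 nt. AGO8 and AGO3 are the members whose models in the table consist of coding sequence alone, so an intron in a 5′ UTR could not appear there. In AGO1, AGO4, AGO6 and AGO9 the first exon was untranslated, so their long first introns lay in the 5′ UTR or next to it.

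**Figure D2:**
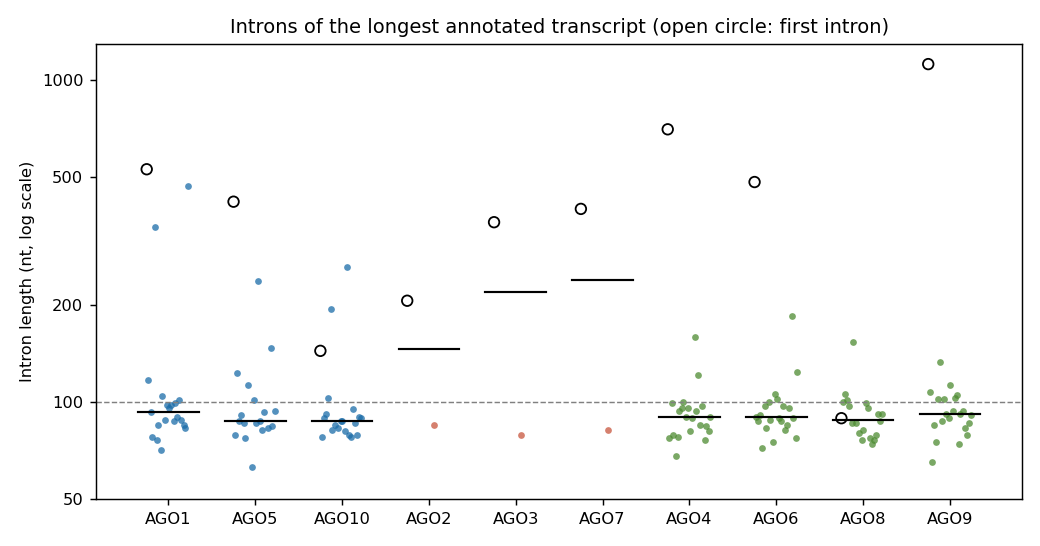
Length in nt, on a log axis, of each intron in the longest annotated transcript of each AGO gene, 1 point per intron, coloured by clade. Open circles are first introns, short bars the gene medians and the dashed line the genome median of 100 nt. Most introns of the 7 intron-rich genes lie close to 90 nt, and the longest point is the 1117 nt first intron of AGO9.

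Base composition followed the same pattern in all members, with introns poorer in G and C than exons. The G+C share of introns was lowest in AGO3, at 23.9%, and AGO2, at 25.1%, and highest in AGO6, at 34.8%. The G+C share of exons ran from 41.5% in AGO10 to 47.7% in AGO3. AGO3 and AGO2 thus had the widest gap between intron and exon among the 10 genes. Every one of the 156 different annotated AGO introns began with GT and ended with AG, against 98.8% of annotated nuclear introns.

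Intron positions within the coding sequence were compared in an alignment of the 10 proteins of 1363 columns, where an intron counts as shared when it falls in the same column and codon phase. The 2 intron-rich clades shared most of their positions with each other, while AGO2/3/7 shared none with either. Of 57 coding introns in AGO1/5/10, 55 (96.5%) matched a clade mate and 53 (93.0%) matched a gene of another clade. Of 83 in AGO4/6/8/9, 80 (96.4%) matched a clade mate and 77 (92.8%) another clade. Of 6 in AGO2/3/7, 5 (83.3%) matched a clade mate and 0 another clade. In all there were 29 different positions, 13 of which were occupied in every member of both intron-rich clades and 0 in all 10 genes.

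The second intron of AGO2, AGO3 and AGO7 fell in column 832 in phase 2 in all 3 genes. The first fell in column 357 in AGO2 and AGO3 and in column 354 in AGO7, in phase 1 each time, and was the 1 coding intron of that clade without an exact match. Protein identity grouped AGO7 with them less clearly. AGO2 and AGO3 were identical at 72.2% of aligned residues. After each other, both had AGO7 as their closest member. Their next best matches were AGO1 for AGO2, at 34.8%, and AGO5 for AGO3, at 33.4%. AGO7 matched AGO2 at 35.4% and AGO3 at 36.1%, while it matched AGO10 at 39.6%, AGO1 at 39.4% and AGO5 at 38.1%. AGO7 therefore shared 1 of its 2 coding introns exactly with AGO2 and AGO3, but had slightly more identical residues with the intron-rich AGO1/5/10. Pairs within AGO1/5/10 ran from 53.9 to 70.0% identity and pairs within AGO4/6/8/9 from 52.4 to 70.5%.

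AGO8 was the member of its clade with the most unmatched introns. Of its 20 coding introns, 3 matched no other member, at columns 891, 997 and 1196. The first 2 of these lay close to introns of its clade mates at columns 887 and 993. For the intron at column 891 the newer annotation also has an acceptor 12 nt upstream. The alignment was not repeated with that acceptor, so this position may depend on the AGO8 model used. AGO4, AGO6 and AGO9 had all of their 21 coding introns each matched within the clade. In AGO5, 1 of 19 was unmatched. In AGO1 and AGO10, 0 were. Phase was alike across the intron-rich genes, with 10 or 11 introns in phase 0 in every member.

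**Figure D3:**
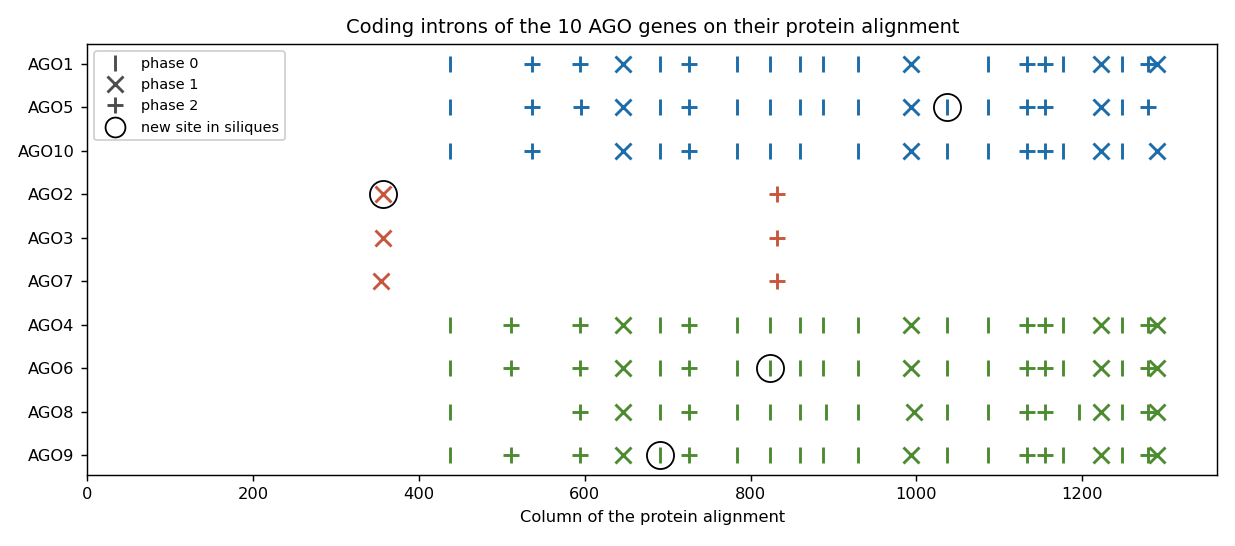
Coding intron positions of the 10 AGO genes along the protein alignment (x axis, alignment column), 1 row per gene, coloured by clade. The symbol gives the codon phase, and circles mark introns with a new site in an assembled isoform. Columns line up across the 7 intron-rich genes. The first introns of AGO2, AGO3 and AGO7 lie within 3 columns of each other, and their second introns share a column. Neither intron matches a gene of the other clades.

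The part of the protein ahead of the first coding intron varied most in AGO2/3/7. It held 316 residues in AGO3, 140 in AGO2 and 116 in AGO7. Glycine made up 34.2% of these residues in AGO3 and 30.0% in AGO2, against 14.2% and 9.66% of their whole proteins, and 0% in AGO7. In AGO1 it held 212 residues with 20.8% glycine, in AGO5 180 with 16.7%, and in AGO10 161 with 5.59%. In AGO4/6/8/9 it was shorter, from 60 residues in AGO8 to 91 in AGO4.

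Gene spacing did not separate the clades cleanly. The distance to the nearest annotated gene on either strand had a median of 535 bp in AGO1/5/10, 1317 bp in AGO2/3/7 and 323 bp in AGO4/6/8/9, against 374 bp over 33297 nuclear genes. Counting only neighbours on the same strand, the medians were 535, 1744 and 4179 bp in the same order of clades, which puts AGO4/6/8/9 farthest from its neighbours instead of closest. Within each intron-rich clade the gap to the nearest gene on either strand varied widely. It was 18 bp in AGO1, 535 bp in AGO5 and 2007 bp in AGO10. In AGO6, AGO9, AGO8 and AGO4 it was 456, 416, 230 and 48 bp. AGO2, AGO3 and AGO7 had 1248, 1317 and 1744 bp to the nearest gene. In 3 of the 10 genes (AGO1, AGO4 and AGO8) the gap was below the nuclear median.

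The closest neighbour of AGO1 was AT1G48405, a gene of the kinase interacting (KIP1-like) family that follows it on the same strand. AGO4 lay 48 bp from ENODL20, on the opposite strand, and 3395 bp from EIL1, a relative of the ethylene signalling factor EIN3. AGO6 lay 456 bp from COP1, the E3 ubiquitin ligase of light signalling, on the opposite strand. AGO2 and AGO3 followed each other on the plus strand of chromosome 1, 2948 bp apart with 0 annotated genes between them. AGO8 and AGO9 were 47966 bp apart on chromosome 5 with 13 genes between them, and AGO4 and AGO5 329130 bp apart on chromosome 2 with 94 between them.

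All 3 genes of AGO1/5/10 had a new isoform, as did 1 of 3 genes of AGO2/3/7 and 2 of 4 of AGO4/6/8/9, 6 of 10 in all. The background was 19.0% of the 33575 annotated genes, 28.3% of those with at least 2 exons and 57.3% of those with 15 or more. Counting isoforms with an intron in no annotated transcript, it was 5 of 10 AGO genes, against 15.6% of all genes. Without isoforms that held an intron of a neighbouring gene it was 5 of 10, against 17.3%, and with every class other than an exact match it was 6 of 10, against 20.7%. AGO1 had 2 new isoforms, AGO2 had 2, and AGO5, AGO6, AGO9 and AGO10 had 1 each. AGO3, AGO4, AGO7 and AGO8 had 0, which does not show that they lacked RNA in siliques, because depth is unknown. For AGO3 an effect of genotype cannot be told apart either, since both labelled libraries are from ago3-3 mutants. Exon number moved with this share across the genome. It was 17.2% of 3311 genes with 3 exons (exact 95% interval 15.9 to 18.5%, counting error only) and 60.8% of 332 genes with 20 to 23 exons (55.4 to 66.1%). Among the AGO genes, 1 of 3 with 3 exons and 5 of 7 with 20 to 23 exons had a new isoform. Beside genes of like exon number the counts were close to the background. Whether the clades differ was not tested.

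**Figure D4:**
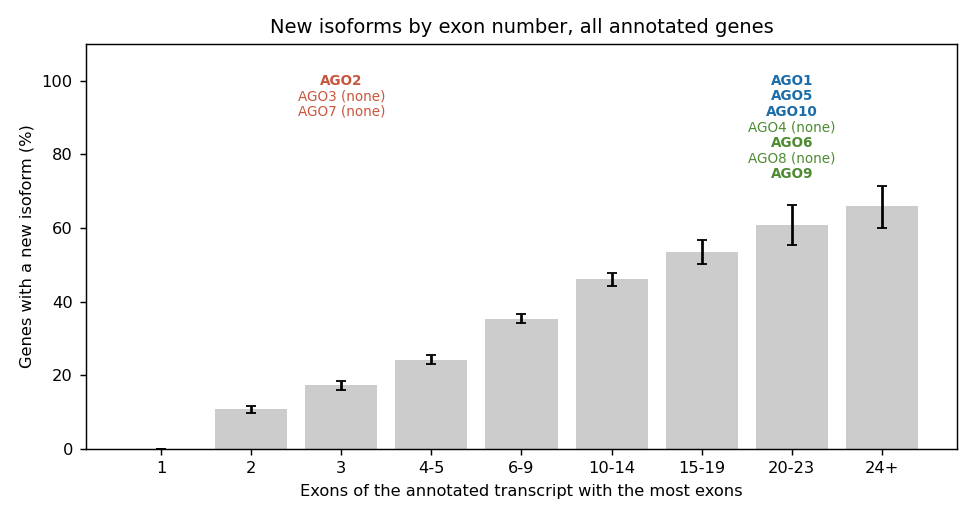
Percentage of annotated genes with a new isoform (y axis) by exon number (x axis), over all annotated genes, with exact 95% intervals for counting error, and the AGO genes named above the bar of their exon number, in bold where they had a new isoform. The share is 17.2% at 3 exons and 60.8% at 20 to 23 exons, the 2 places where the AGO genes lie.

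The coding changes lay in 4 genes and were 5 in number, each a shift of 1 splice site, and the rest of each chain of introns was annotated. AGO5 kept 18 of 19 introns, AGO6 and AGO9 kept 21 of 22 each, and both AGO2 isoforms kept 1 of 2. All 5 shifts were multiples of 3 and brought in 0 stop codons. Among coding donor and acceptor shifts of other genes, 33.4% of 3941 were multiples of 3. With 5 shifts in 4 genes, the share was not compared further.

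In AGO5 the new acceptor of intron 13 lay 105 nt inside exon 14 of 20. The intron measured 168 nt in the new isoform, against 63 nt in the annotation, the shortest of the AGO1/5/10 introns. The protein of the new isoform would have 962 residues, against 997, and lack residues 692 to 726. Of those 35 residues, AGO1 had 26 identical ones at the same alignment columns, and 7 of the other 9 members had a residue at every 1 of them. The intron itself was present at the same column and phase in AGO10, AGO4, AGO6, AGO8 and AGO9, but not in AGO1.

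In AGO6 the new acceptor of intron 9 lay 27 nt inside exon 10 of 23, with an intron of 104 nt in the new isoform, against 77 nt in the annotation. The protein would have 869 residues, against 878, without residues 406 to 414. In AGO9 the new acceptor of intron 6 lay 18 nt inside exon 7 of 23, with an intron of 83 nt, against 65 nt. The protein would have 890 residues, against 896, without residues 289 to 294. Both introns were at positions occupied in all 7 members of the intron-rich clades. In the alignment AGO8 had 3 of the 9 AGO6 residues and AGO4 had 4 of the 6 AGO9 residues, the highest count in a clade mate each time.

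In AGO2 both changes concerned the same intron, the first of 2, at the end of exon 1. One isoform used a donor 3 nt upstream, and the other an acceptor 3 nt downstream. Both sites were tandem repeats in the sequence, with a GT 3 nt before the annotated GT at the donor, and an AG 3 nt after the annotated AG at the acceptor. Each isoform would have a protein of 1013 residues, against 1014. The new donor replaced residues 140 and 141 by 1 residue, and the new acceptor removed residue 141. From their shared start the spliced isoforms had 3437 nt each and differed at 2 bases, so that the assembled AGO2 isoforms were nearly the same sequence with different intron borders. At the changed residues, 4 of the other 9 members have no residue in the alignment.

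A second AG directly after the annotated one, as at this AGO2 acceptor, was present in 4 of 152 introns of the longest AGO transcripts (2.63%), against 4.66% of 127854 annotated nuclear introns. The others were introns 4 and 11 of AGO10 and intron 1 of AGO4, and no new isoform used them.

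The new sites matched the splice-site consensus less well than the annotated site they replaced in 5 of 5 cases. The score is a log2 odds against the base composition of the nuclear genome, over 9 bases at a donor and 18 at an acceptor. At the AGO2 donor it was -3.68 for the new site, against 6.13 for the annotated one, and only 0.191% of annotated donors scored as low. At the AGO9 acceptor it was -0.50, against 7.79, at the AGO5 acceptor 1.89, against 8.08, and at the AGO6 acceptor 0.93, against 5.57. The smallest difference was at the AGO2 acceptor, with 1.72, against 4.53. The size of these differences depended on the acceptor window. With 6 intron bases in place of 15 it was -0.47 at the AGO2 acceptor, -3.17 at that of AGO5, -4.79 at that of AGO9 and -7.21 at that of AGO6, against -2.80, -6.19, -8.28 and -4.64. The 4 new acceptors stood at percentiles 4.63 (AGO5), 4.25 (AGO2), 2.82 (AGO6) and 1.33 (AGO9) of annotated acceptors.

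**Figure D5:**
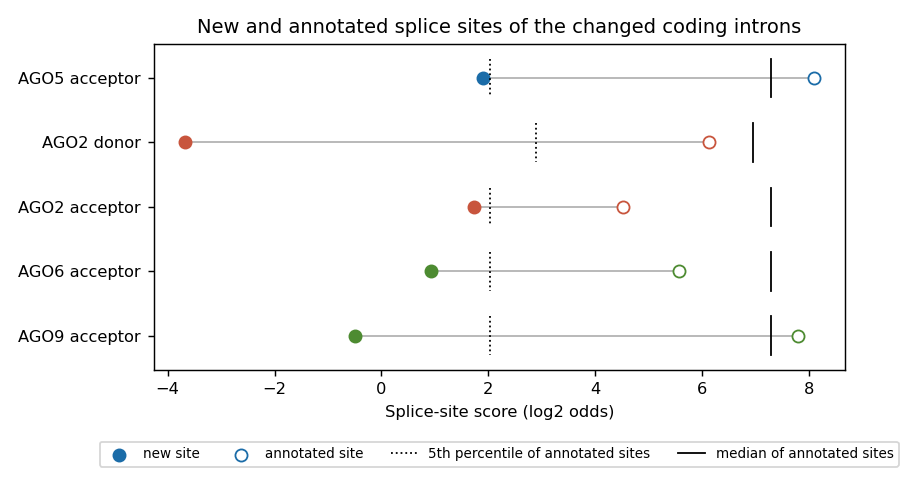
Splice-site score (log2 odds) of the 5 new coding sites and of the annotated sites they replaced, 1 pair per row, filled circles for new and open circles for annotated sites. Dotted and solid ticks are the 5th percentile and the median of annotated sites. Each new site lies lower than its annotated partner, from a difference of -2.80 at the AGO2 acceptor to -9.80 at the AGO2 donor.

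All 5 new sites scored below the 5th percentile of annotated sites, which was 2.03 for acceptors and 2.89 for donors. Among new coding sites of other genes, of 2650 acceptors 21.4% scored below that value, and 258 of 1291 donors did. With 5 sites in 4 genes the difference was not tested. The medians were 4.44 for those acceptors and 4.98 for those donors, against 7.29 and 6.96 over annotated sites. No depth or read support is available for any of these sites, so their share of the gene's RNA is unknown.

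The new isoforms of AGO1 and AGO10 changed no AGO coding sequence. Both AGO1 isoforms held 22 introns of AGO1 and 1 of AT1G48405, ran 988 nt past the annotated 3′ end of AGO1 and contained all 894 coding bases of the neighbour, 18 bp downstream. Such joining was not rare, since 11.9% of 9601 new isoforms in the table held an intron of another gene. The isoforms differed from each other in intron 4, with 91 nt in one and 85 nt in the other, a 6 nt acceptor choice that is already annotated for AGO1. The AGO10 isoform joined annotated sites of the 5′ UTR into an intron of 483 nt, which the newer annotation also has.

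Of the 7 different introns absent from the annotation of the 6 genes, all 7 began with GT and ended with AG, and 1, that of AGO10, was in the newer annotation. Where the annotation already had alternatives, these differed in kind. AGO4 had a donor choice of 19 nt in its 5′ UTR, AGO1 the 6 nt choice in coding sequence, and AGO10 donors 577 nt apart in the 5′ UTR. The AGO10 intron from the upstream donor also covers exon 2, of 77 nt, and intron 1, of 144 nt, of the longest transcript. The newer annotation added to AGO3 introns of 222 nt and 108 nt inside exon 1 and to AGO8 an acceptor choice of 12 nt in intron 9, all multiples of 3. AGO3 and AGO8, which had no new isoform here, thus have alternatives in the newer annotation. The evidence behind those was not examined.

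Most new isoforms also reached past the ends of the annotated models in the table. The AGO10 isoform began 166 nt upstream and ended 146 nt downstream of the annotated ends, and that of AGO5 96 and 55 nt. The AGO2 isoforms began 125 and 97 nt upstream and ended at the annotated 3′ end. AGO6 gained 15 and 36 nt, and AGO9 gained 16 nt at the 5′ end. Against the newer annotation most of these ends lay inside the model, at the 5′ end by 62 nt in AGO10, 14 nt in AGO5, 82 and 110 nt in AGO2 and 30 nt in AGO6. Past it lay the 3′ ends of AGO10, by 36 nt, and of AGO1, by 988 nt, and the 5′ end of AGO9, by 16 nt. In the newer annotation the AGO3 model itself is longer, by 173 nt at the 5′ end and 268 nt at the 3′ end, and the AGO8 model by 75 nt at the 3′ end.

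The known microRNA sites of the family fell inside the models of AGO1 and AGO2 in the table, but not inside that of AGO3. AGO1 is a target of miR168, and AGO2 and AGO3 of miR403, and the pairs are shown because AGO3 differs from its neighbour here. Sequences come from the TAIR10.1 reference with RefSeq microRNA positions, 5′ to 3′. Capitals mark the seed (bases 2 to 8) in a microRNA and the letters equal to its perfect complement in a site.
ath-miR168a-5p, chr4:10578652-10578672, plus strand: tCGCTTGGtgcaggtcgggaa
AGO1 site, chr1:17891529-17891549, minus strand: TTCCCGAgCTGCAtCAAGCtA
ath-miR403-3p, chr2:19415154-19415174, plus strand: tTAGATTCacgcacaaactcg
AGO2 site, chr1:11185223-11185243, plus strand: gGAGTTTGTGCGTGAATCTAA
AGO3 site, chr1:11192399-11192419, plus strand: gatGTTTGTGCGTGAATCTAA

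The AGO1 site was coding in all its 21 bases, lay in exon 2 of 22 and had 3 mismatches. The AGO2 site had 1 mismatch, lay in exon 3 at 111 nt after the stop codon, and was present in both new isoforms of that gene. The AGO3 site had 3 mismatches and began 82 nt past the end of the AGO3 model in the table, which stops with the coding sequence. It lay in an exon of the newer annotation. A match of letters does not show that a site was used in these siliques.

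Genes that make small RNAs or work with AGO proteins were counted in the same way, from 2 lists chosen with results of these data known. In small RNA production, 6 of 14 genes had a new isoform, beside 19.0% of all annotated genes. The list had a median of 11 exons and ran from 3 in HYL1 to 25 in DCL4. The share was 46.1% among genes with 10 to 14 exons, but most genes of the list lie outside that range. They were not compared gene by gene with genes of like exon number. DCL3, a Dicer-like enzyme of small interfering RNAs, had acceptor shifts of 3 and 20 nt in coding sequence, and HST, which exports microRNAs, had coding donor shifts of 13 and 271 nt in 2 isoforms. RDR6, an RNA-dependent RNA polymerase, had 3 new isoforms with changes outside the coding sequence, and SGS3, its partner, had 1. SE and DRB4, which assist Dicer-like enzymes, had 1 each with 0 introns absent from the annotation.

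In AGO loading, turnover and partner proteins, 3 of 11 genes had a new isoform, beside 19.0% of all annotated genes. The list had a median of 5 exons and ran from 3 in HSP90.3 to 29 in TRN1. The share was 24.3% among genes with 4 to 5 exons, but most genes of the list lie outside that range. They too were not compared gene by gene with genes of like exon number. HSP90.3, a chaperone, had a 603 nt intron inside its coding sequence. NRPE1, the largest subunit of RNA polymerase V, had a coding donor shift of 9 nt and a donor shift of 264 nt outside the coding sequence. SPT5L, an AGO-binding partner of that polymerase, had a 363 nt intron that joins annotated sites in another pairing. The coding shifts in HST and the 20 nt shift in DCL3 were not multiples of 3. The 9 nt shift in NRPE1 and the 3 nt shift in DCL3 were.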

How the data were processed

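RNA of ago3-3 siliques was sequenced on the stranded, paired-end design that the labels describe. The authors deposited 1 merged table of exon positions (start and end on each chromosome) with a class code per transcript. It holds 318041 exon lines and 0 columns with a value per library, so depth is unknown. CASAVA 1.8, TopHat2 and Cufflinks on TAIR10 are named per the submitters' processing notes. No settings were given there, nor versions of TopHat2 and Cufflinks.

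Sequences, coding frames and neighbours were checked against TAIR10.1 (RefSeq), where 32815 of 32819 nuclear genes with the same name overlapped on the same strand. The longest annotated transcript stood for each gene. A new isoform was a class j transcript. Proteins translated from the reference were aligned with MAFFT 7.526 (L-INS-i). Splice sites were scored with log2 odds matrices built from 127854 annotated nuclear introns, with a pseudocount of 1. Statistics used Python 3.11.15 and SciPy 1.17.1. The calls of splice-site shifts, coding bases and frame, and the building of the score matrices, were tested on simulated data.

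Members and lists were chosen with earlier results of these data known. Named were all 10 AGO genes, their nearest annotated genes and the pathway genes with a new isoform, of which only some neighbours are described. Values are descriptions of gene models, so no p-value is given. Alternatives changed the isoforms, background, transcript, annotation, introns, neighbours, alignment and score matrix.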

Additional observations from a re-analysis of the deposited data

How the results depend on the processing

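Of the recomputed summary values, 24 stayed within the tolerance and 20 moved. Values other than counts moved when they differed at 3 significant figures, so small changes are included. These values are counts, medians and shares, for which a change of sign was not looked for. It was looked for in the score differences of single sites, where 0 reversed. The background share was 28.3% among genes with at least 2 exons and 57.3% among those with 15 or more, against 19.0% of all genes. AGO genes with a new isoform numbered 5 when an unannotated intron was required or a neighbour's intron was barred, and 6 with any class. The exon median of AGO1/5/10 was 20 with the first-numbered transcript and 20 for coding exons, against 21, and that of AGO4/6/8/9 was 22 for coding exons, against 23. The intron median of AGO1/5/10 was 88.5 nt in longest transcripts, 88 nt for coding introns and 87 nt as a median of gene medians, that of AGO2/3/7 was 220 nt and that of AGO4/6/8/9 was 89.8 nt by gene medians. The nearest gene on the same strand lay at a median of 1744 bp for AGO2/3/7 and 4179 bp for AGO4/6/8/9, which changed the order of the clades. With the newer annotation the medians were 431, 1041 and 203 bp for AGO1/5/10, AGO2/3/7 and AGO4/6/8/9. Within 3 residues in any phase, 100% of introns of AGO1/5/10 and 100% of AGO2/3/7 matched a clade mate and 94.7% of AGO1/5/10 another clade. With FFT-NS-2, 87.7% of AGO1/5/10 and 88.0% of AGO4/6/8/9 matched another clade. With an acceptor window of 6 bases the score differences were -0.47, -3.17, -4.79 and -7.21 at the acceptors of AGO2, AGO5, AGO9 and AGO6, and all 5 new sites stayed lower. The causes were not tested. No paired analysis was possible because no column carries a replicate, and leaving out each library was not run for that reason.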

Other observations

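Within 10 kb of any member the table held 1 intergenic transcript, 8167 bp from AGO2 on the minus strand of chromosome 1 (11172700 to 11173543, 2 exons), and 0 antisense transcripts. The genome-wide rate of such transcripts was not computed. Of 18 different annotated genes next to an AGO gene, other than AGO genes themselves, 6 had new isoforms, beside 19.0% of all annotated genes. They were D-CDES beside AGO1, EIL1 beside AGO4, COP1 and ZFN2 beside AGO6, AT5G43822 beside AGO10 and emb1379 beside AGO9. The share of genes with a new isoform rises with exon number, and these neighbours were not compared with genes of like exon number.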
